A study of Homo sapiens with 6 samples.

Results

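The genes described are 51 receptor tyrosine kinases (RTKs) out of 61487 genes in the count table. They were chosen by name from a list of receptor genes, without a threshold on measured values but with earlier results of these data known. The same holds for the lists of pathway genes set beside them, so shares of called genes in any list are descriptions only. All 51 matched a gene ID. RNA was compared between K562 cells resistant to azacitidine (3 libraries) and sensitive K562 cells (3 libraries), cultured in the same medium. K562 is an erythroleukaemia-type line from a patient with chronic myeloid leukaemia and carries the BCR-ABL1 fusion kinase. Azacitidine is a cytidine analogue that traps DNA methyltransferases, and the resistant population was derived by growing the line for months in rising concentrations of the drug. The labels call the libraries of a group biological replicates, without saying how the replicates were separated, whether the resistant cells are a clone, or whether the drug was present at harvest. All 6 library names end in NT, which is not read here as a statement about the drug. The p-values reflect variation among these 6 libraries.

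RTKs are typically single-pass membrane proteins. A ligand brings receptor chains together, the kinase domains phosphorylate each other, and adaptor proteins then dock on the phosphotyrosines and switch on RAS, PI3-kinase and phospholipase signalling. Ubiquitin ligases of the CBL family and tyrosine phosphatases end the signal. In blood formation KIT, the receptor of stem cell factor, sustains progenitors and the early erythroid and mast cell lineages, while ephrin (EPH) receptors take part in cell contact and positioning.

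Total counts were between 33007642 and 37991708 in resistant and between 34924828 and 43006918 in sensitive libraries. The libraries numbered 3 had the fewest genes with a count in both groups, 28896 against 31880 and 31536 in resistant and 29233 against 31506 and 31147 in sensitive libraries, so results were also computed without both. Small nucleolar RNA took between 0.114% and 0.227% of counts in resistant and between 0.404% and 0.695% in sensitive libraries, and its part in the results was not tested. In the check of the cell label, the erythroid regulator GATA1 averaged 84.1 ± 3.68 CPM in resistant and 114 ± 14.5 CPM in sensitive cells (SD, n = 3 each). GATA1 was not called. Of 11 markers of K562 cells 10 were tested, of which 2 were higher and 0 lower in resistant cells. Their log2 fold changes were positive in 7 and negative in 3, with a median of 0.39. The marker HBE1 went the other way from GATA1, with 24 counts over the resistant and 2 over the sensitive libraries. Of the myeloblast markers, MPO had 6 and 9 counts, ELANE 2 and 2 and CD34 2 and 3 counts over the 3 resistant and the 3 sensitive libraries, so the label Myeloblast goes with almost no MPO, ELANE or CD34 transcript. Of the 3 tested myeloblast markers 2 fell, CD33 to 10.6 CPM in resistant cells against 105 CPM in sensitive cells (9.85-fold, edgeR adjusted p = 1.45e-06) and PRTN3 to 31 counts against 155 (0.0253). AZU1 averaged 2.40 and 3.88 CPM and was not called. Of 10 markers of other cell types 6 were tested, of which 1 was higher and 2 were lower in resistant cells. MS4A1 had 0 counts, and CD3E had 3 counts over the resistant and 72 over the sensitive libraries. The log2 fold changes of the 6 tested markers ranged from −4.45 to 4.11, with 2 positive and 4 negative. Their part in the results was not tested. CPM are counts relative to library sizes scaled by trimmed means of M-values (TMM).

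The summed level of RTK transcripts differed between the groups by less than the spread of the sensitive libraries, while its make-up was different. Summed over the 51 genes, CPM per kilobase of merged exons was 87.1, 84.4 and 87.1 in the resistant libraries, against 100.03, 96.5 and 84.4 in the sensitive libraries. KIT made up 0.897%, 0.975% and 0.292% of that sum in resistant libraries and 20.3%, 21.2% and 29.1% in sensitive libraries, where it ranked 1 in every library. In resistant libraries rank 1 was held by EPHB4, a receptor of B-type ephrins, with 22.3%, 24.4% and 26.9% of the sum, against 10.5%, 9.20% and 10.6% in sensitive libraries. Per kilobase, EPHB4 averaged 21.1 ± 2.05 CPM in resistant cells, and FGFR3, INSR and LMTK2 followed at 7.50 ± 1.79, 7.29 ± 0.415 and 6.31 ± 0.570 CPM. The last 3 means lie closer together than the SD of FGFR3. In sensitive cells KIT led at 21.8 ± 2.41 CPM per kilobase, followed by EPHB4 at 9.45 ± 0.928 and FGFR3 at 9.45 ± 3.41 CPM per kilobase (SD, n = 3 libraries throughout).

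**Figure D1:**
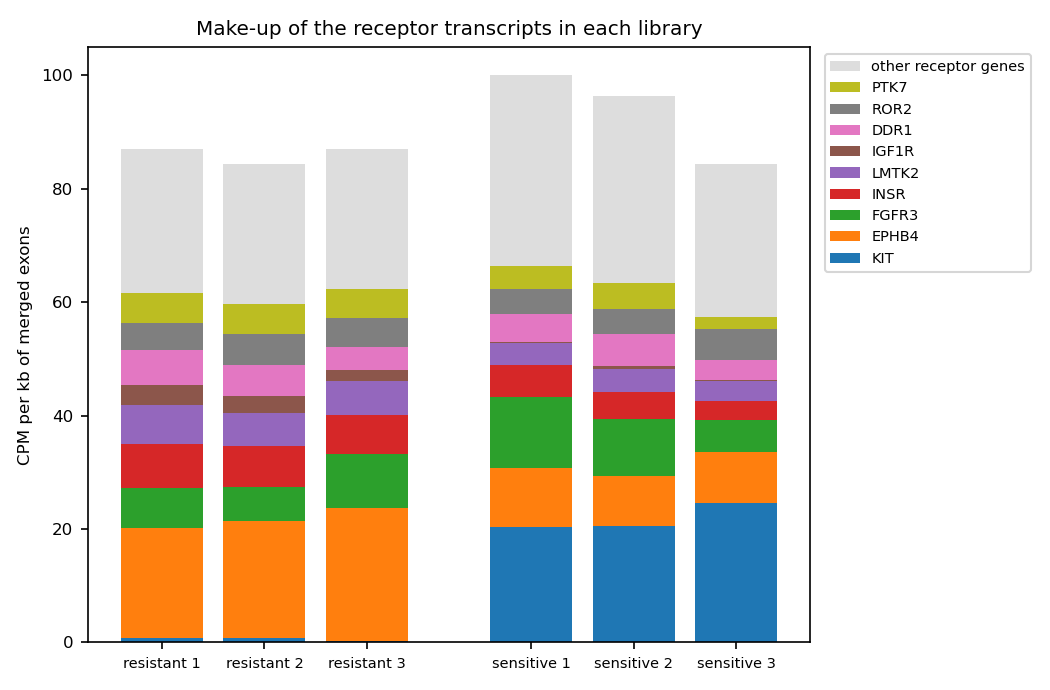
Stacked bars of CPM per kilobase of merged exons for 9 receptor genes and the sum of the other receptor genes, 1 bar per library, resistant libraries on the left. KIT takes between 20.3% and 29.1% of each sensitive bar and at most 0.975% of a resistant bar.

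Of the 51 genes, 31 had enough counts to be tested and 20 did not. Among the 31, 9 were higher and 5 lower in resistant cells (edgeR quasi-likelihood test, Benjamini-Hochberg adjusted p below 0.05 over 20891 genes), 7 and 4 of them by at least 2-fold. Over all genes tested, 9.83% were higher and 13.1% lower. The shares among tested receptors were 29% higher and 16.1% lower, and their median log2 fold change was 0.20, against 0.03 over all genes tested. The resistant and the sensitive libraries did not overlap for 20 of the 31, in 13 with resistant cells higher and in 7 with resistant cells lower, where 40.1% of all tested genes did not overlap. All 14 called receptors were among these 20. Without both libraries numbered 3, 10 receptors were called higher and 10 lower, where 21.2% of all genes tested were higher and 22.9% lower.

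**Figure D2:**
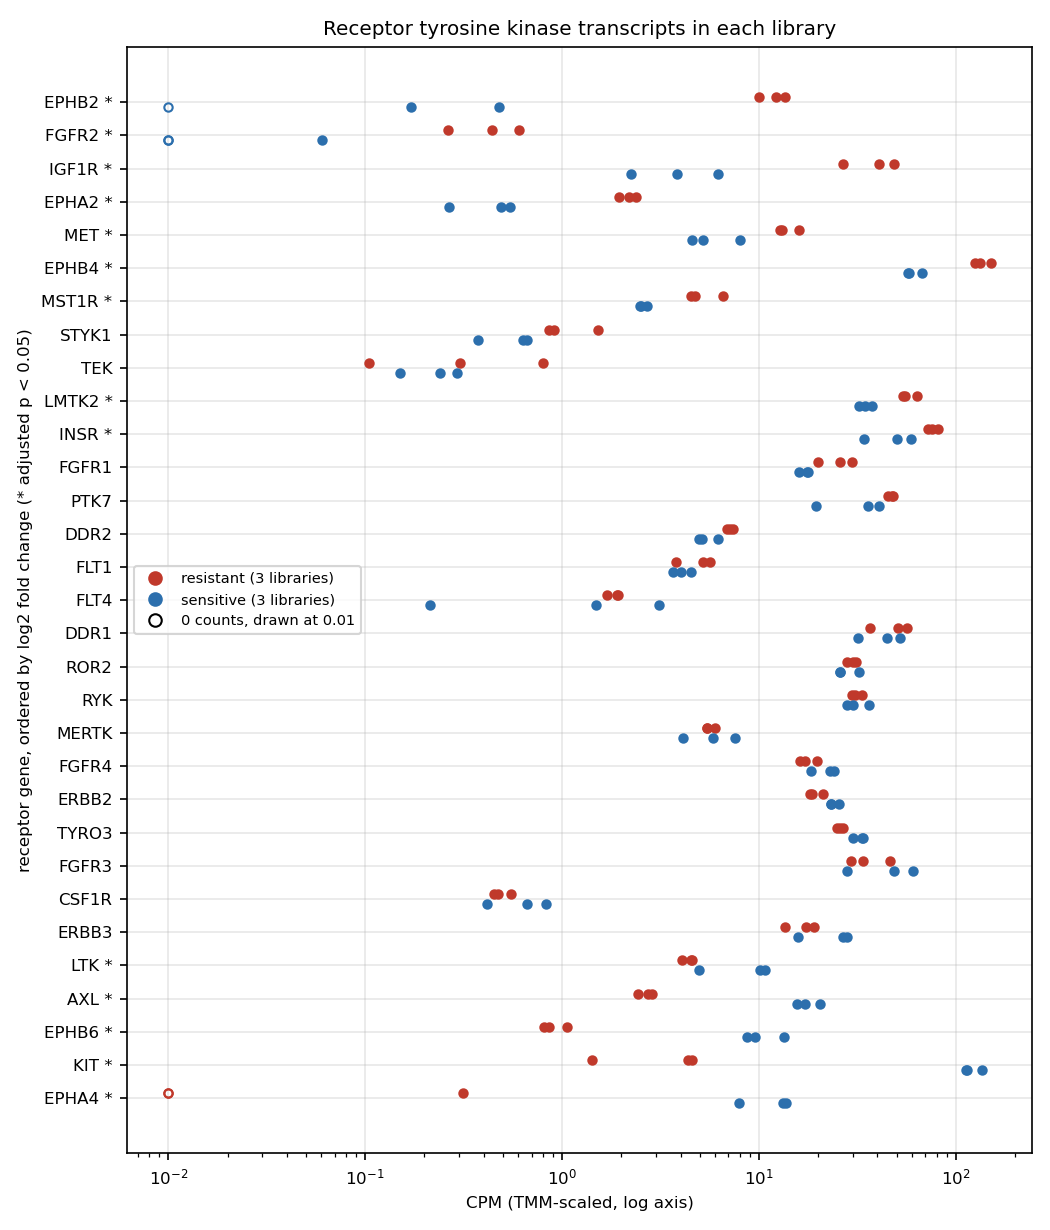
CPM of the 31 tested receptor genes on a log axis, 1 point per library, resistant above sensitive in each row, with rows ordered by fold change. Asterisks mark adjusted p below 0.05, and the KIT points lie at or below 4.58 CPM in resistant and at or above 113 CPM in sensitive libraries.

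The sequences that lead into the start sites of the receptors with the largest called changes at 1 CPM or more, EPHA4 and KIT among those that fell and EPHB2 and IGF1R among those that rose, are given for their content of CG pairs, the sites that DNA methyltransferases modify. They are RefSeq windows of build GRCh38.p14, 5′ to 3′ on the gene's strand, of up to 250 bases before a start and ended where an annotated exon of the gene begins. The EPHA4 window lies inside the gene as annotated, which begins at 221574202 on the minus strand. No annotated coding transcript start lay within 25 bases of the start used for KIT. Capitals mark CG pairs, and DNA methylation was not measured here.
EPHA4 (chr2:221572359-221572554, minus strand): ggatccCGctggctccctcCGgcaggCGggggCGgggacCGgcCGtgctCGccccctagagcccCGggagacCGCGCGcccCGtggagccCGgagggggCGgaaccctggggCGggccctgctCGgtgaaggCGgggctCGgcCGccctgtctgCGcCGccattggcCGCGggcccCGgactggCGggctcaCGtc
KIT (chr4:54657707-54657917, plus strand): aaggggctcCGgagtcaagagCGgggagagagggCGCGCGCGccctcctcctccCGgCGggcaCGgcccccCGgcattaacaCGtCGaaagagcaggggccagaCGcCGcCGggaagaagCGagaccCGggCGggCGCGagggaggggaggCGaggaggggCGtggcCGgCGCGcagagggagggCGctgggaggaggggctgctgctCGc
EPHB2 (chr1:22710588-22710837, plus strand): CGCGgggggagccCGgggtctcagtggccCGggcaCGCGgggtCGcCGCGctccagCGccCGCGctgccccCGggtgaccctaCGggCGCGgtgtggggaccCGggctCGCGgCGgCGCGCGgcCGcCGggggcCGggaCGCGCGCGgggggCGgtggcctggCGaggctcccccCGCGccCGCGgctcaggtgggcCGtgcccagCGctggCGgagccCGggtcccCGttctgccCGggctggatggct
IGF1R (chr15:98648289-98648538, plus strand): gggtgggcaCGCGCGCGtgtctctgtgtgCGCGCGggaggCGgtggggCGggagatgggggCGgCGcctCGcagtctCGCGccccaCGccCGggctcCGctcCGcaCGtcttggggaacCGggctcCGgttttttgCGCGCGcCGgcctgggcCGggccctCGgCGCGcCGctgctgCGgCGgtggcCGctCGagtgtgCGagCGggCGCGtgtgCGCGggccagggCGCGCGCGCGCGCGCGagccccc
All 4 are rich in CG, with 26 pairs in 196 bases for EPHA4, 27 in 211 bases for KIT, 42 in 250 bases for EPHB2 and 48 in 250 bases for IGF1R. CG-rich starts were found both among receptors that fell and among those that rose.

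Windows were found for 46 of the 51 genes, 1 per gene. Here the full 250 bases were counted, also where an annotated exon begins within them, so KIT had 34 pairs and EPHA4 30. The 250 bases held at least 10 CG pairs in 9 of the 9 receptors that rose (median 28 pairs), 3 of the 5 that fell (median 14) and 9 of 13 that were not called (median 24), against 79.7% of all tested genes with a window (median 20). AXL and EPHB6, which fell, were the CG-poor ones, with 4 and 3 pairs. The letters GGGCGG, searched on both strands and overlapping the CG count, were in 9 of the 9 that rose and 4 of the 5 that fell, against 63.9% of all tested genes. The letters GATAA were in none of the 9 that rose, in 1 of the 5 that fell, EPHB6, and in 13.9% of all tested genes, and TATAAA was in 1 of the 9, LMTK2, in 0 of the 5 and in 6.46% of all tested genes. These matches describe the windows and say nothing of binding.

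KIT (ENSG00000157404, chromosome 4, 54657918 to 54740715) was nearly lost from resistant cells. It measured 4.35, 4.58 and 1.42 CPM in resistant libraries, against 113, 114 and 137 CPM in sensitive libraries. The groups lie far apart, and within them resistant replicate 3 was the lowest and sensitive replicate 3 the highest. The mean was 3.45 ± 1.76 CPM in resistant and 121 ± 13.4 CPM in sensitive cells (SD, n = 3 each), a log2 fold change of −5.13 ± 0.39 (SE) and an edgeR adjusted p of 1.53e-05, 35.1-fold lower. By exact permutation of the library labels the two-sided p was 0.1, which is as low as groups of 3 can reach. In bulk RNA, fewer cells with KIT and less KIT RNA per cell cannot be told apart.

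Genes around KIT varied in direction. The 7 tested protein-coding genes within 1 Mb had a median log2 fold change of 0.28, 4 of them were positive, and the lowest was LNX1 at −3.17. KDR and PDGFRA, the receptor genes on either side of KIT, had too few counts to be tested, with 0 and 2 counts over the resistant and 10 and 5 over the sensitive libraries. The other genes of the KIT class were low in both groups. FLT3 had 5 counts in resistant and 3 in sensitive libraries and PDGFRB 2 and 8. CSF1R, the macrophage colony-stimulating factor receptor, averaged 0.491 ± 0.0523 and 0.636 ± 0.209 CPM and was not called (adjusted p = 0.607).

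The EPH receptors, the largest RTK family, moved in both directions. EPHA4 and EPHB6 fell while EPHB2, EPHA2 and EPHB4 rose, so all 5 tested EPH genes of the list were called. EPHA4, which binds A-type and B-type ephrins, had 0, 0 and 0.315 CPM in resistant libraries, against 13.2, 13.8 and 7.96 CPM in sensitive libraries. Its log2 fold change was −6.75 ± 0.78 (SE, adjusted p = 2.61e-04). All 12 resistant counts came from resistant replicate 3, so the fitted value rests on that library. It was −6.15 without resistant replicate 2, and no resistant count was left without resistant replicate 3. EPHB6, whose kinase domain is catalytically inactive, had 0.858, 1.06 and 0.813 CPM in resistant libraries, against 13.4, 9.56 and 8.73 CPM in sensitive libraries, and fell by 3.53 ± 0.28 on the log2 scale (SE, adjusted p = 2.00e-05).

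EPHB2 was close to absent from sensitive cells, with 13.5, 12.2 and 10.0 CPM in resistant libraries, against 0.171, 0.481 and 0 CPM in sensitive libraries. Its log2 fold change of 5.80 ± 0.65 (SE, adjusted p = 2.05e-04) rests on 23 sensitive counts, and it was 6.99 without sensitive replicate 2, which held most of them, and 5.21 without sensitive replicate 3. EPHA2, a receptor of A-type ephrins, had 2.19, 2.36 and 1.94 CPM in resistant libraries and 0.489, 0.541 and 0.268 CPM in sensitive libraries, 4.98-fold higher (adjusted p = 0.00241). EPHB4 had 125, 132 and 151 CPM in resistant libraries and 67.7, 57.1 and 57.6 CPM in sensitive libraries, a log2 fold change of 1.16 ± 0.15 (SE, adjusted p = 5.61e-04). In each of these genes every resistant library was above every sensitive library.

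EPHB4 shares exon sequence on the opposite strand with SLC12A9, a gene of the cation-chloride transporter family. SLC12A9 averaged 18.2 CPM in resistant and 10.3 CPM in sensitive cells and was also called higher (log2 fold change 0.82, adjusted p = 0.00770). The strand setting of the counting is not given in the sources used here, so reads of the shared part cannot be assigned with certainty. Of 54 tested neighbours of EPHB4 within 1 Mb, 43 had a positive log2 fold change, with a median of 0.41. Around EPHB2 the median of 20 neighbours was 0.08. The remaining 6 EPH genes of the list, which does not hold every EPH gene, were not tested. They were EPHA1, EPHA3, EPHA7, EPHA10, EPHB1 and EPHB3, with between 2 and 37 counts over all 6 libraries.

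IGF1R and INSR, the receptors of insulin-like growth factors and insulin, both rose. IGF1R had 48.6, 40.9 and 26.9 CPM in resistant libraries, against 3.84, 6.19 and 2.25 CPM in sensitive libraries. Replicate 3 was the lowest library in both groups, yet the groups were far apart, and the log2 fold change was 3.25 ± 0.36 (SE, adjusted p = 2.03e-04), a 9.50-fold higher level. INSR had 81.0, 75.3 and 72.5 CPM in resistant libraries and 59.5, 50.02 and 34.2 CPM in sensitive libraries. It was 1.59-fold higher (adjusted p = 0.0365), a call lost without resistant replicate 1 (0.0878), resistant replicate 2 (0.109), sensitive replicate 2 (0.101) or sensitive replicate 3 (0.0688). The 6 tested neighbours of IGF1R had a median log2 fold change of 0.54, and the 44 of INSR a median of −0.19.

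MET, the receptor of hepatocyte growth factor, and its relative MST1R, the receptor of macrophage-stimulating protein, rose as well. MET had 12.8, 15.9 and 13.1 CPM in resistant libraries, against 5.21, 8.06 and 4.55 CPM in sensitive libraries (log2 fold change 1.23 ± 0.25 SE, adjusted p = 0.00579). Its 6 tested neighbours within 1 Mb had a median of −2.11, the opposite direction. MST1R had 6.56, 4.53 and 4.75 CPM in resistant libraries and 2.52, 2.71 and 2.49 CPM in sensitive libraries (1.04 ± 0.26 SE, adjusted p = 0.0172). The MST1R call was lost without resistant replicate 1 (0.0692), sensitive replicate 1 (0.0773) or sensitive replicate 2 (0.0598).

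Of the TAM receptors, which bind the vitamin K-dependent proteins GAS6 and PROS1, AXL alone was called. AXL had 2.85, 2.44 and 2.73 CPM in resistant libraries, against 20.4, 17.2 and 15.6 CPM in sensitive libraries. The resistant libraries lay within a narrow range well below the sensitive ones, and AXL fell by 2.73 ± 0.20 on the log2 scale (SE, adjusted p = 1.43e-05). TYRO3 averaged 25.8 ± 0.822 CPM in resistant and 32.5 ± 2.09 CPM in sensitive cells, and MERTK 5.61 ± 0.294 and 5.82 ± 1.72 CPM, with adjusted p of 0.128 and 0.909. The difference between AXL and the other TAM genes in fold change was not tested.

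LTK, the leukocyte receptor related to ALK, had 4.57, 4.07 and 4.51 CPM in resistant libraries and 10.7, 10.2 and 4.98 CPM in sensitive libraries. The groups were barely apart, since sensitive replicate 3 lay near the resistant values, and the adjusted p was 0.0398 for a log2 fold change of −0.98 ± 0.30 (SE). The call was lost without resistant replicate 1 (0.0808), resistant replicate 2 (0.138), sensitive replicate 1 (0.155) or sensitive replicate 2 (0.129), with library totals alone (0.0956) and with limma-voom (0.0746).

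LMTK2, a membrane-anchored kinase of the lemur family, had 63.6, 53.9 and 55.5 CPM in resistant libraries and 34.5, 37.6 and 32.4 CPM in sensitive libraries, and rose 1.66-fold (adjusted p = 0.00579). Its 7 tested neighbours within 1 Mb had a median log2 fold change of 0.34, with 5 positive and 2 negative. FGFR2, a fibroblast growth factor receptor, had 50 counts over the resistant and 2 over the sensitive libraries, both in sensitive replicate 2. The ratio was 24.4, with an exact 95% binomial interval from 6.42 to 207 that covers counting error only, and the adjusted p of 0.0102 passed 0.05 no longer without resistant replicate 2 (0.0590) or sensitive replicate 1 (0.0606). The fitted log2 fold change of 4.35 was 3.75 without sensitive replicate 1 and 7.07 without sensitive replicate 2, after which no sensitive count is left. Per kilobase it averaged 0.0576 CPM in resistant cells, where FGFR1, FGFR4 and FGFR3 averaged 1.82, 3.66 and 7.50 CPM per kilobase.

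**Figure D3:**
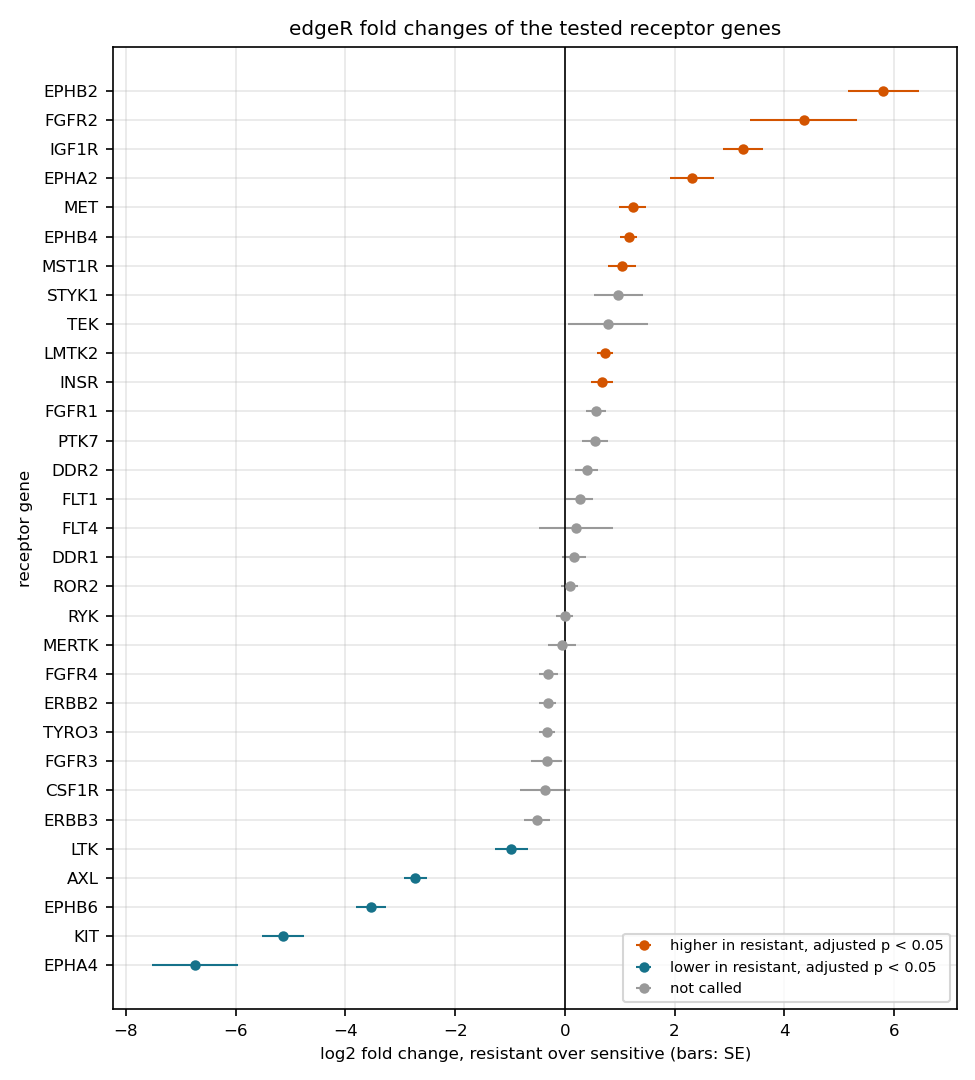
Log2 fold change of resistant over sensitive cells for the 31 tested receptor genes, with bars for the SE. The 5 genes that fell range from −0.98 for LTK to −6.75 for EPHA4, and the 9 that rose from 0.67 for INSR to 5.80 for EPHB2.

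The 17 tested receptors that were not called had log2 fold changes from −0.50 for ERBB3 to 0.98 for STYK1. In 6 of the 17 the groups did not overlap, where 40.1% of all tested genes, called ones included, did not overlap. DDR2, PTK7, FGFR1 and STYK1 were higher in every resistant library and TYRO3 and ERBB2 lower. FGFR1 had 29.8, 25.7 and 19.9 CPM in resistant libraries and 15.96, 17.6 and 17.7 CPM in sensitive libraries. Its adjusted p was 0.0518, and FGFR1 was called under 8 of the 15 alternatives tried. The adjusted p was 0.0471 with DESeq2 size factors and 6.45e-04 without both libraries numbered 3. PTK7, a pseudokinase receptor of WNT signalling, had 47.3, 48.1 and 45.5 CPM in resistant libraries and 35.7, 40.8 and 19.5 CPM in sensitive libraries (adjusted p = 0.130). PTK7 was called higher with no filter on low counts (0.0441) and with the replicate number as a block (0.0333).

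Several of the uncalled receptors were well expressed in both groups. FGFR3 had 33.7, 29.3 and 46.1 CPM in resistant libraries, against 60.7, 48.7 and 28.0 CPM in sensitive libraries. The libraries numbered 3 went the opposite way from the others, and without both of them the log2 fold change was −0.81 (adjusted p = 1.13e-04) in place of −0.33 (0.420). ERBB3, a receptor of neuregulins with a weak kinase, had 19.1, 17.3 and 13.6 CPM in resistant libraries and 28.1, 26.7 and 15.9 CPM in sensitive libraries. ERBB3 was called lower with the replicate number as a block (0.0447) and without sensitive replicate 3 (0.0227). It was also called without both libraries numbered 3 (−0.60, 0.00191), as were ERBB2 (−0.42, 0.0207), FGFR4 (−0.52, 0.00675) and TYRO3 (−0.40, 0.0175). The collagen receptor DDR1 averaged 47.9 ± 10.3 CPM in resistant and 42.8 ± 10.2 CPM in sensitive cells, ROR2 29.7 ± 1.60 and 27.9 ± 3.71 CPM, and RYK 31.3 ± 2.00 and 31.4 ± 4.36 CPM. At lower levels, FLT1 averaged 4.88 ± 0.982 and 4.05 ± 0.435 CPM (edgeR adjusted p = 0.486). FLT4 averaged 1.84 ± 0.131 and 1.60 ± 1.44 CPM (0.857).

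The 20 receptors without enough counts had at most 43 counts over the 6 libraries. EGFR and ROS1 had 0 counts in every library, which allows up to between 0.0733 and 0.0902 CPM per library (3 counts). ERBB4, a neuregulin receptor, had 0 counts in every resistant library, against 16, 9 and 5 counts in sensitive libraries, and was at least 10.2-fold lower, taken against 3 counts over the resistant group. RET had 4 counts over the resistant and 0 over the sensitive libraries. A count of 2 was between 1.78 and 2.27 times as frequent among genes as a count of 1 in each library, so low counts may not be independent reads and these bounds and intervals may be too narrow.

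The ligand list, 74 genes, held more genes that fell than genes that rose. Of 35 tested ligands 1 rose, 13 fell and 21 were not called, with a median log2 fold change of −0.54. That is 2.86% higher and 37.1% lower, against 9.83% and 13.1% of all tested genes. KITLG, the ligand of KIT, fell with its receptor. It had 0.111, 0.0503 and 0 CPM in resistant libraries, against 0.855, 1.26 and 0.884 CPM in sensitive libraries (log2 fold change −4.16 ± 0.74 SE, adjusted p = 0.00325). With 6 counts in resistant cells the value is imprecise, and it was −5.11 without resistant replicate 1. Amphiregulin (AREG), a ligand of EGFR, which had 0 counts here, had 1.05, 0.930 and 1.705 CPM in resistant libraries and 27.2, 23.5 and 22.5 CPM in sensitive libraries (adjusted p = 4.55e-06). EGF itself fell 3.03-fold, to 8.12 ± 1.32 CPM in resistant cells against 24.6 ± 5.07 CPM in sensitive cells.

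IGF1 moved opposite to IGF1R. It had 0.471, 1.08 and 0.498 CPM in resistant libraries, against 13.0, 18.2 and 8.89 CPM in sensitive libraries, and was 19.4-fold lower (log2 fold change −4.28 ± 0.40 SE, adjusted p = 7.12e-05). The TAM ligands fell with AXL. PROS1 averaged 49.6 ± 4.52 CPM in resistant and 87.7 ± 3.85 CPM in sensitive cells (adjusted p = 0.00258). GAS6, chosen after its values were seen, had 3.57, 3.67 and 2.41 CPM in resistant libraries and 16.5, 19.1 and 6.32 CPM in sensitive libraries (adjusted p = 0.00361).

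ANGPT1, the ligand of TEK, fell 3.56-fold to 38.2 ± 5.605 CPM in resistant cells against 136 ± 53.8 CPM in sensitive cells, while TEK itself was not called (adjusted p = 0.473). PDGFA, a ligand of PDGFRA, had 1.69, 1.36 and 0.525 CPM in resistant libraries and 11.3, 17.2 and 3.70 CPM in sensitive libraries (adjusted p = 0.00348). PDGFRA was too low to be tested here. FGF5 had 2 counts over the resistant and 135 over the sensitive libraries, a ratio of 69.0 in favour of sensitive cells with a counting interval from 18.7 to 576. Both resistant counts were in resistant replicate 1, and the fitted log2 fold change was −5.87, against −8.54 without that library. The 1 ligand that rose was NRG4, a neuregulin chosen after its values were seen, at 1.27 ± 0.356 CPM in resistant and 0.435 ± 0.0724 CPM in sensitive cells. Its adjusted p of 0.0257 was between 0.0519 and 0.114 without resistant replicate 1 or 2 or any single sensitive library.

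The remaining called ligands, VEGFA, FGF2, EFNA1 and EFNA2, fell as well and were likewise chosen after their values were seen. The EFNA1 call (adjusted p = 0.0419) was lost under 8 of the 15 alternatives, with values between 0.0521 and 0.121 that include leaving out any single library but resistant replicate 1. The EFNA2 call (0.0225) was lost without resistant replicate 2 (0.0827), sensitive replicate 1 (0.0811) or sensitive replicate 2 (0.0984). HGF, the ligand of MET, had 2 counts in resistant and 4 in sensitive libraries. MST1, the ligand of MST1R, averaged 5.41 ± 1.34 CPM in resistant and 3.48 ± 0.867 CPM in sensitive cells (adjusted p = 0.144), and EFNB1, a ligand of EPHB2, 3.95 ± 0.931 and 3.10 ± 0.565 CPM (0.420). HGF, MST1 and EFNB1 were chosen after their values were seen. RNA levels in culture give no measure of the ligands in the serum of the medium.

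**Figure D4:**
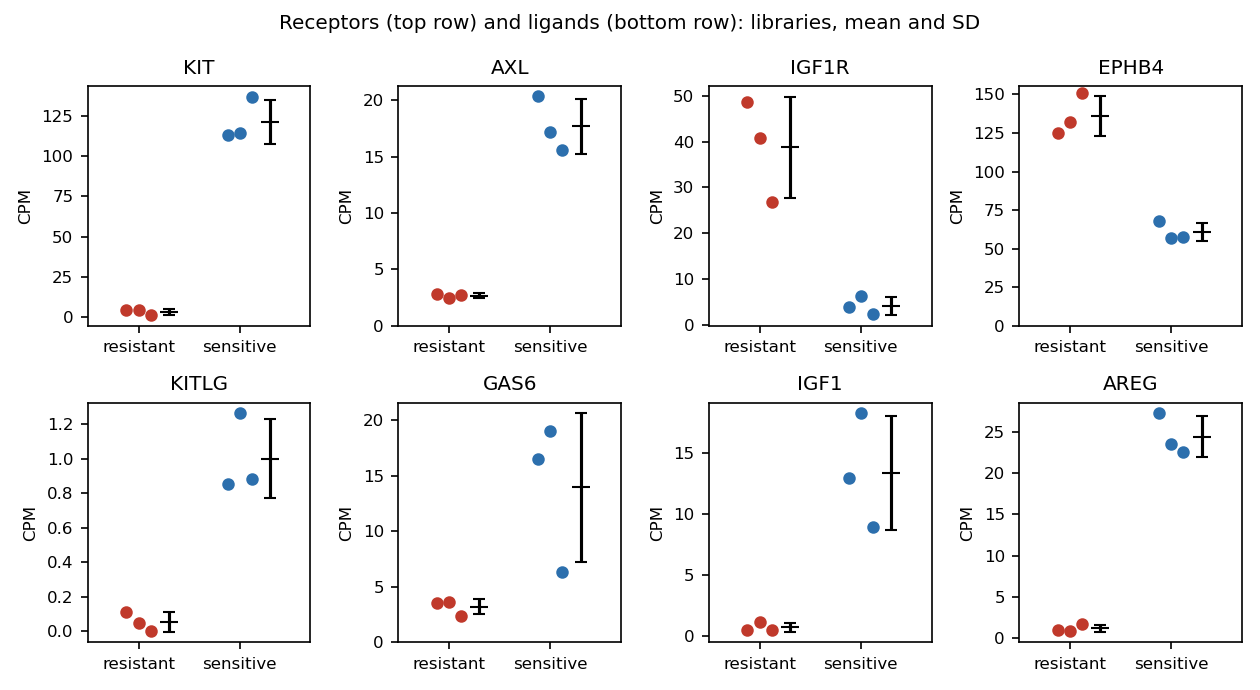
CPM of 4 receptors (top) and 4 ligands (bottom), points for the 3 libraries of each group, resistant on the left, with the mean and SD as a dash and bars. KITLG, GAS6, IGF1 and AREG are lower in every resistant library, while IGF1R and EPHB4 are higher in every resistant library.

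Among 12 tested co-receptors of a list of 22, 4 rose (33.3%) and 1 fell (8.33%), with a median of 0.31. Of all tested genes 9.83% rose and 13.1% fell. The heparan sulphate proteoglycans SDC1 and SDC2, which hold growth factors at the cell surface, averaged 59.6 ± 5.23 and 211 ± 37.2 CPM in resistant cells, against 21.9 ± 5.32 and 88.7 ± 10.9 CPM in sensitive cells (adjusted p = 7.30e-04 and 0.00105). SDC3 fell 2.03-fold (0.00678). NRP2, a co-receptor of VEGF receptors, rose 4.22-fold from a low level (0.00410), and the sorting receptor SORT1 2.12-fold (0.00667). The count of co-receptors that fell was 2 without resistant replicate 2 and 3 without resistant replicate 3. Of all tested genes, 7.76% and 16.5% fell in these settings.

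Transducers that dock on activated receptors moved in both directions. Of 42 tested in a list of 49, 6 rose (14.3%), 10 fell (23.8%) and 26 were not called, with a median of −0.03. The shares over all tested genes were 9.83% higher and 13.1% lower. VAV1, a signalling protein of blood cells, had 9.66, 10.7 and 12.3 CPM in resistant libraries and 45.9, 41.1 and 50.9 CPM in sensitive libraries (adjusted p = 2.44e-05). The kinase SRC had 10.2, 7.62 and 4.80 CPM in resistant libraries and 1.00, 1.26 and 0.777 CPM in sensitive libraries, a 7.44-fold higher level (3.45e-04). The adaptors NCK2, DOK1 and GAB3 fell 2.69-fold, 2.22-fold and 2.22-fold, and the phospholipase PLCG2 2.26-fold. Among PI3-kinase subunits, the regulatory PIK3R1 rose 2.21-fold (0.00215) and the catalytic PIK3CD fell 1.86-fold (0.00345). Another catalytic subunit, PIK3CB, chosen after its values were seen, rose 1.44-fold (0.0386), a call lost with no filter (0.0670) and, with adjusted p between 0.0840 and 0.140, without any single library but resistant replicate 3.

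Several genes that end RTK signals fell. Of 26 tested attenuators in a list of 29, 2 rose (7.69%), 10 fell (38.5%) and 14 were not called, with a median of −0.42. Over all tested genes 9.83% rose and 13.1% fell. The number of attenuators that fell was 6 without resistant replicate 1 and 5 without resistant replicate 2. The share of all tested genes that fell was also smaller in these settings, 9.94% and 7.76%. UBASH3B, a phosphatase that acts on activated tyrosine kinases, was nearly lost, with 0.0277, 0.201 and 0.157 CPM in resistant libraries, against 18.9, 17.3 and 23.3 CPM in sensitive libraries (log2 fold change −7.21 ± 0.40 SE, adjusted p = 3.00e-06). Its relative UBASH3A fell to 1.16 ± 0.494 CPM in resistant cells, against 14.9 ± 4.74 CPM in sensitive cells. The ubiquitin ligase CBLB had 1.22, 1.36 and 0.970 CPM in resistant libraries and 22.1, 20.8 and 15.4 CPM in sensitive libraries (−4.04 ± 0.25, 4.55e-06).

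SH3KBP1, an adaptor of CBL proteins in receptor endocytosis, fell 6.08-fold and the ubiquitin ligase NEDD4 3.80-fold. CBL itself, chosen after its values were seen, had 130, 104 and 60.4 CPM in resistant libraries and 68.8, 64.0 and 61.4 CPM in sensitive libraries and was not called (adjusted p = 0.107). CBL was called higher without resistant replicate 3 (0.00320), without both libraries numbered 3 (log2 fold change 0.80, 6.99e-05), with no filter (0.0287) and with the replicate block (0.0445). The membrane proteins LRIG3 and LRIG2 were the 2 that rose. LRIG3 had 5.23, 7.09 and 8.34 CPM in resistant libraries and 0.244, 0.120 and 0.616 CPM in sensitive libraries, a log2 fold change of 4.37 ± 0.50 (SE), against 5.18 without sensitive replicate 3. LRIG2 rose to 122 ± 18.9 CPM in resistant cells, against 61.1 ± 3.79 CPM in sensitive cells. The receptor phosphatase PTPRJ fell 1.57-fold (0.0126), a call lost without resistant replicate 2 (0.0730) or sensitive replicate 1 (0.0658) and with library totals alone (0.0618).

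**Figure D5:**
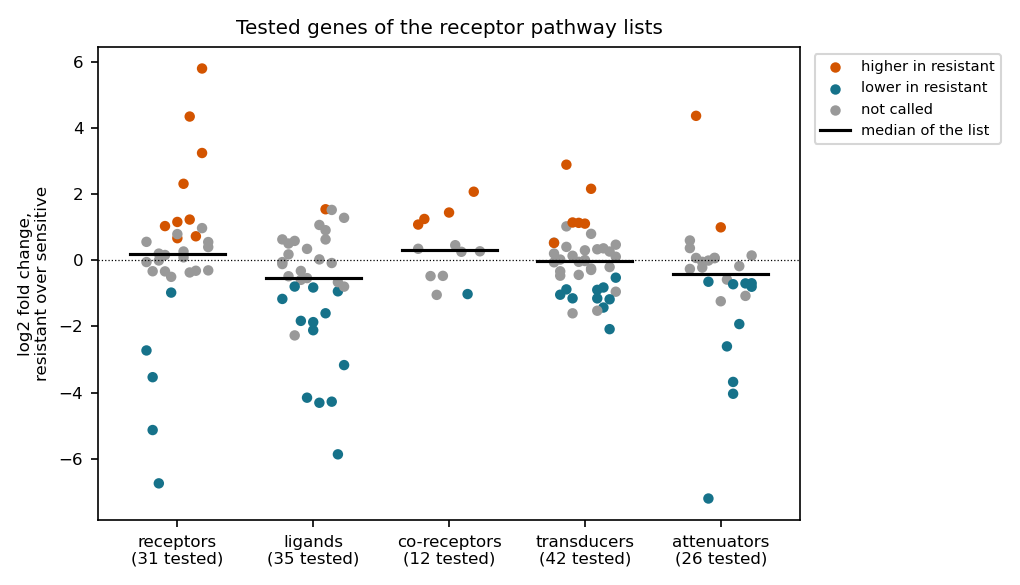
Log2 fold change of every tested gene in 5 lists, coloured by call, with the list median as a line. The medians are 0.20 for receptors, −0.54 for ligands, 0.31 for co-receptors, −0.03 for transducers and −0.42 for attenuators.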

How the data were processed

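RNA-seq counts of 6 K562 libraries were analysed. Per the labels' protocols, DNase-treated total RNA was depleted of ribosomal RNA, made into stranded libraries and sequenced in pairs. Trimmomatic 0.39, HISAT2 2.2.1, featureCounts, Subread 2.0.3 and build GRCh38 are named, per the submitters' processing notes. Annotation release, strand setting and counting unit (read or fragment) were not found in the labels, so antisense and overlapping genes are uncertain. The authors deposited unnormalized whole-number counts for each Ensembl gene ID.

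After filterByExpr, 20891 genes were left. Library sizes were TMM-scaled, and edgeR 4.0.16 (R 4.3.3) ran its quasi-likelihood test in robust form, two-sided, with Benjamini-Hochberg adjustment over all genes tested. The SE is the log2 fold change divided by the square root of F. Positions and merged exon lengths came from GENCODE 29 on GRCh38, promoter windows from RefSeq. For genes with several windows, the window with the most annotated coding transcript starts within 25 bases was used. On simulated counts of this comparison (20236 genes), edgeR recovered 78.1% of 4-fold and 30.6% of 2-fold changes, and 7.63% of its calls were unchanged genes.

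The alternatives were DESeq2 1.42.0 (size factors, and its test), limma-voom (limma 3.58.1), library totals, other count filters (none, or 50 counts in at least 3 libraries), a replicate block, each library left out, both libraries numbered 3 left out, and length and GC offsets. Members and lists were chosen with earlier results of these data known. The genes named were the called receptors and KIT, receptors at 1 CPM or more, and up to 8 called genes per pathway list by adjusted p. Pathway genes named beyond this rule are marked as chosen after their values were seen. Receptors below 1 CPM, marker genes and neighbouring or overlapping genes that are named also lie beyond it and carry no such mark. A count of 0 was taken to allow 3 counts.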

Additional observations from a re-analysis of the deposited data

How the results depend on the processing

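Over 15 alternatives, 10 of the 14 called receptors kept their call and direction under each, namely KIT, EPHA4, EPHB6, AXL, EPHB2, IGF1R, EPHA2, MET, EPHB4 and LMTK2, and none of the 14 changed sign. The exceptions, INSR, MST1R, LTK and FGFR2, are given beside their values. With single libraries left out, between 7 and 10 receptors were higher and between 4 and 6 lower. Without both libraries numbered 3, 10 receptors and 4 co-receptors were lower, while 4 ligands, 11 transducers and 4 attenuators were higher. With library totals alone, which put the median over all tested genes at 0.20, 10 transducers and 2 ligands were higher. Ligands called higher numbered 5 with no filter, 0 with at least 50 counts, 2 with the DESeq2 test, the replicate block or the offsets, and between 0 and 4 with single libraries left out. Co-receptors called lower numbered 2 with no filter and between 1 and 3 with single libraries left out, and attenuators called lower between 5 and 11. Over all genes, 2054 were higher and 2741 lower, against 3041 and 2118 with library totals and 4645 and 5021 without both libraries numbered 3. They numbered 1362 and 2148 without resistant replicate 1, 1051 and 1677 without resistant replicate 2, 3327 and 3718 without resistant replicate 3, 1062 and 1869 without sensitive replicate 1, and 1179 and 1913 without sensitive replicate 2. The causes were not tested.

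Signs turned only in receptors that were not called. RYK (−0.0042 in the comparison itself) was 0.0050 with DESeq2 size factors, 0.17 with library totals, 0.034 with at least 50 counts, 0.0049 with the DESeq2 test, 0.0020 with limma-voom, 0.0025 with the replicate block, 0.047 without both libraries numbered 3 and 0.15 with the offsets. With single libraries left out, RYK lay between −0.11 and 0.11, MERTK between −0.26 and 0.15, FLT4 between −0.32 and 1.07, DDR1 between −0.026 and 0.30 and TEK between −0.17 and 1.22. MERTK was 0.11 with library totals and 0.012 with the offsets, and FLT4 −0.36 without both libraries numbered 3.

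The replicate numbers were not taken as pairs. Deviations of same-numbered libraries from their group means correlated at 0.202, 0.0850 and 0.299, and sensitive replicate 2 correlated best with resistant replicate 1 (0.230). Resistant replicate 3 correlated at −0.177 and −0.235 with sensitive replicates 1 and 2. Sensitive replicate 3 correlated at −0.312 and −0.0793 with resistant replicates 1 and 2. The libraries numbered 3 thus deviated alike in both groups, for a reason that was not tested. With the replicate block, 11 receptors were called higher and 6 lower, against 9 and 5 without it. Over all genes, 2859 were higher and 3582 lower with the block, against 2054 and 2741 without it. Depth limits the 20 untested receptors and the folds of FGFR2, EPHB2, EPHA4, KITLG and FGF5, which rest on few counts in 1 group.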
